A study of Mus musculus with 6 samples.

Results

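The genes described here are 7 genes of the lysosome and of the nutrient sensing system on its surface, taken by name from a table of 53647 gene identifiers: Rragd, Mios, Atp6v1c1, Atp6v1f, Atp6v0d2, Laptm4b and Tmem106b. All 7 had a row, matched by Ensembl identifier without its version. The line used was D2.OR, a mouse model of breast cancer, carrying either a lentiviral hairpin against Slx4ip (shSLX4IP, n = 3) or a scrambled one without a target (shScram, n = 3), after puromycin selection. Cells of both groups were plated at 31500 per cm2 on a layer of Cultrex, a basement membrane extract, and kept for 7 days in medium with 10% serum and 5% Cultrex. The labels call the samples biological replicates, but do not say whether they were separate cultures or transductions, so the p-values measure the spread between these samples, part of which may be technical. The labels name 1 hairpin per group.

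The vacuolar ATPase (v-ATPase) is a rotary proton pump that acidifies the lysosome, with a V1 sector in the cytosol that breaks down ATP and a V0 sector in the membrane that carries protons. The same membrane is where the kinase complex mTORC1 is switched on when amino acids are plentiful. Rag GTPases, which work as heterodimers of RagA or RagB with RagC or RagD, bring mTORC1 there, and the GATOR complexes set their nucleotide state. When mTORC1 is less active, transcription factors of the MiT/TFE family enter the nucleus and bind E-box motifs near genes of the lysosome, Rragd being one of their known targets.

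Values are the authors' normalised counts, in which the reads of a library were divided by its size factor. The libraries held 5433573 to 6693111 recovered reads. One library, shScram A, was scaled unlike the others. In it 1 read counted as 1.46 normalised counts, against 0.796 to 0.976 in the others. Its values summed to 8948118, against 5276405 to 5974334, and 8464 features were above 0, against 10548 to 11611. The table lists 36965 of its 53647 identifiers at 0 throughout, genes that every cell uses among them, so most identifiers cannot be read as their gene. Slx4ip, the target of the hairpin, stands at 0 in each of the 6 libraries and gave no check of the labels. The 7 genes lie inside stretches of chromosomes 4, 6 and 15 that are dense in protein-coding genes with high values. Genes wholly inside these stretches, with those of the other stretch and the mitochondrial genome, are called placed. Within such a stretch a member's value was read as that gene, though the fit of each gene to the annotation was not tested. In bulk RNA, fewer cells of a type and less RNA per cell cannot be told apart.

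The RefSeq promoter table (GRCm38.p6) held 4 of the 7 genes, each as 250 bases before to 50 bases after the start. They are shown because the E-box is the motif best known at lysosomal genes, and because the set holds the gene with the largest change next to 3 whose changes did not pass the test. The E-box (CACGTG, the same on both strands) was searched first, and the GC box (GGGCGG or CCGCCC) and the core of the NRF1 motif (GCGCATGC or GCATGCGC) after the sequences had been read. Capitals mark any of these, 5′ to 3′, and all 4 genes lie on the plus strand.
Rragd, chr4:32982748-32983047: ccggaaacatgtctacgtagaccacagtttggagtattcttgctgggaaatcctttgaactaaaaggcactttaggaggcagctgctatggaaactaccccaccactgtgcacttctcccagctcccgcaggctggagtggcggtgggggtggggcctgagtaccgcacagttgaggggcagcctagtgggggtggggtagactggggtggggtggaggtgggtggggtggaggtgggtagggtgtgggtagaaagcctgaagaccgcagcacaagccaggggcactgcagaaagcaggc
Mios, chr6:8208977-8209276: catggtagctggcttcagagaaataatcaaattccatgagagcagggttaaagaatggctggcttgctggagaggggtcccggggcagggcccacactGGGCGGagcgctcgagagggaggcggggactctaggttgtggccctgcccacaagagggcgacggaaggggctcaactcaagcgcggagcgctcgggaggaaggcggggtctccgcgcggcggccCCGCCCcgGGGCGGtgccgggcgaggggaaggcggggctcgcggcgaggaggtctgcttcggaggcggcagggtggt
Atp6v1f, chr6:29467533-29467832: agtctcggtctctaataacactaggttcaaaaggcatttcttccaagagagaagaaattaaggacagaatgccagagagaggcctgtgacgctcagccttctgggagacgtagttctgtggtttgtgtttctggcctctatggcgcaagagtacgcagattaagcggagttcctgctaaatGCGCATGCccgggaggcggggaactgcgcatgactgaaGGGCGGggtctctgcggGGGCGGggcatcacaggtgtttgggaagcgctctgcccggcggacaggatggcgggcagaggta
Tmem106b, chr6:13069509-13069808: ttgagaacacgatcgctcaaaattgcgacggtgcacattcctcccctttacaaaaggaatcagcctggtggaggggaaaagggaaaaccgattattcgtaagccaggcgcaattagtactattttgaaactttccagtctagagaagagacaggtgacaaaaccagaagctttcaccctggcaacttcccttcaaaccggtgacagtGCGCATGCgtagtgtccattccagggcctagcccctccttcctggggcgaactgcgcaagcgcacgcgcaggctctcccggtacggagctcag
None of the 4 windows held an E-box, a motif found in 7.15% of 32851 RefSeq promoters of this length. The Rragd window held none of the 3 motifs. Mios had 3 GC boxes and Atp6v1f had 2, a motif of 35.7% of all promoters. Atp6v1f and Tmem106b each had 1 NRF1 core, which 2.71% of all promoters held. The share of G and C was 59.7% for Rragd, 69.0% for Mios, 56.3% for Atp6v1f and 53.0% for Tmem106b, against a median of 52.7% over all promoters. A match describes the sequence and is no evidence that a factor binds there. A missing motif describes only these windows and these exact sequences, and is no evidence that a factor does not act on the gene.

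The groups differed in single genes of the system, in both directions. Rragd was 7.85-fold higher in shSLX4IP, Atp6v1c1 fell to 0.249 of its shScram level and Laptm4b to 0.388. Mios, Atp6v1f and Tmem106b did not pass the test, and Atp6v0d2 was not detected in any library. Of the 7 genes, 6 reached a mean of at least 10 and were tested, in a limma fit on log2(value + 1) over 8127 features with Benjamini-Hochberg adjustment over all of them and a threshold of 0.05. Passed were 3 of 6, namely 1 higher and 2 lower, beside 23.0% of all features tested (11.7% higher and 11.3% lower) and 40.3% of the 462 placed ones (17.3% higher and 22.9% lower). The groups did not overlap in 4 of 6, namely 2 higher and 2 lower, beside 53.5% of all features (30.2% higher and 23.4% lower) and 67.1% of placed ones (27.7% higher and 39.4% lower). The share called is therefore not particular to these genes, and what follows describes each of them. Both counts include Atp6v1c1, which was placed only through its level in shScram, the group in which it was high. For any single gene an exact 2-sided permutation test of 3 against 3 cannot give a p below 0.1.

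**Figure D1:**
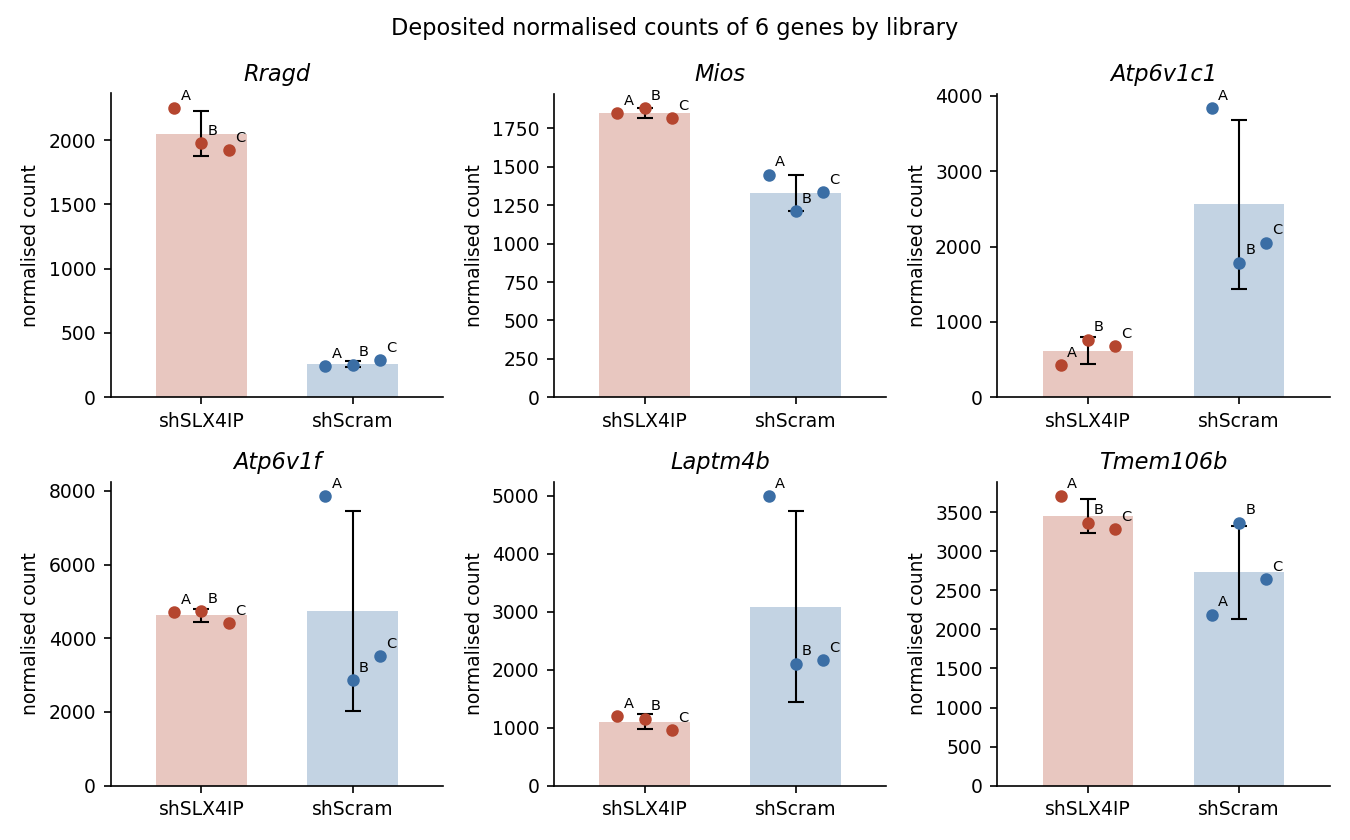
Normalised counts (y axes, from 0, each with its own scale) of 6 genes in the 3 shSLX4IP libraries and the 3 shScram libraries. Bars are group means, error bars 1 SD and points single libraries named by their letter. Rragd is higher and Atp6v1c1 and Laptm4b are lower in each shSLX4IP library than in any shScram library, and shScram A is the highest point for Atp6v1c1, Atp6v1f and Laptm4b.

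Rragd (ENSMUSG00000028278.15, chromosome 4, 32983037 to 33022180 on GRCm38) encodes RagD, a GTPase that pairs with RagA or RagB to recruit mTORC1. It was at 2251, 1977 and 1924 normalised counts in shSLX4IP A, B and C, against 242, 253 and 286 in shScram A, B and C. The lowest shSLX4IP library thus lay far above the highest shScram library. The means were 2051 ± 176 in shSLX4IP and 260 ± 23.1 in shScram (SD, n = 3 each), a log2 fold change of 2.97 (SE 0.16, limma adjusted p = 0.000404). The call held in each of 18 other settings, with log2 fold changes between 2.90 and 3.32. Its exons, 5173 bases in 8 blocks, overlap no other annotated gene. The next gene, Ube2j1, had a mean of 3699 over the 6 libraries, and 7 of the 10 protein-coding genes before Rragd and 4 of the 10 after it had a mean of at least 100.

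Mios (ENSMUSG00000042447.14, chromosome 6, 8209222 to 8236274) encodes a subunit of GATOR2, the complex that acts upstream of the Rag GTPases by opposing GATOR1. It was at 1852, 1883 and 1818 normalised counts in shSLX4IP A, B and C, compared with 1448, 1210 and 1333 in shScram A, B and C. The groups did not overlap, and shScram A was the highest of its group. With means of 1851 ± 32.8 in shSLX4IP and 1330 ± 119 in shScram (SD, n = 3 each), the log2 fold change of 0.48 (SE 0.13) missed the threshold (limma adjusted p = 0.0538). It passed in 7 of 18 other settings, among them without shScram A, where the log2 fold change was 0.54 (adjusted p = 0.00436), and it was positive in all 18.

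Both genes were set against each other within each library, which takes the size factor out. The ratio of Rragd to Mios was 1.216, 1.05 and 1.06 in shSLX4IP A, B and C and 0.167, 0.209 and 0.215 in shScram A, B and C. The lowest ratio in shSLX4IP was above the highest in shScram, and the mean log2 ratio differed by 2.50 (exact permutation p = 0.1, the smallest this design allows, and 0.1 after adjustment over the 4 ratios computed). In each shSLX4IP library Rragd stood above Mios, and in each shScram library below it.

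Atp6v1c1 (ENSMUSG00000022295.9, chromosome 15, 38661933 to 38692446) encodes the C subunit of V1, which holds the V1 and V0 sectors together and is let go when the pump comes apart. It was at 421, 761 and 674 normalised counts in shSLX4IP A, B and C, against 3841, 1787 and 2052 in shScram A, B and C. Each shSLX4IP library lay below each shScram library, although shScram A was 2.00 times the mean of shScram B and C. The means were 619 ± 177 in shSLX4IP and 2560 ± 1117 in shScram (SD, n = 3 each), a log2 fold change of -2.01 (SE 0.38, limma adjusted p = 0.0169). The call was lost without any 1 shSLX4IP library (adjusted p 0.0522 to 0.0655) and held in the other 15 settings, with -1.67 without shScram A. Atp6v1c1 is the last gene of its stretch, which was drawn from genes with a mean of at least 1000 over the 6 libraries. It reached that mean only through the shScram libraries, so that at its shSLX4IP level alone it would lie outside the stretch and not be read. Its place among the genes described, and with it this call, therefore rests on the group in which it was high. Before it, 7 of 10 protein-coding genes had a mean of at least 100, Azin1 next to it among them with 4633, and after it none of 10 did, the next gene Baalc being listed at 0. Whether the annotation holds along the whole of Atp6v1c1 was not tested.

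Atp6v1f (ENSMUSG00000004285.13, chromosome 6, 29467718 to 29470512) encodes the F subunit in the central stalk of V1. It was at 4711, 4742 and 4410 normalised counts in shSLX4IP A, B and C, compared with 7848, 2864 and 3509 in shScram A, B and C. The groups overlapped, with shScram A above and shScram B and C below all shSLX4IP libraries. The means were 4621 ± 183 in shSLX4IP and 4740 ± 2710 in shScram (SD, n = 3 each), and the log2 fold change of 0.11 (SE 0.39) did not pass (limma adjusted p = 0.849). Without shScram A it was 0.54 and passed (adjusted p = 0.0143), while without shScram B it was -0.18 and without shScram C it was -0.04 (adjusted p = 0.719 and 0.956), so that 1 library decides the sign. It also passed after quantile normalization (0.69, adjusted p = 0.0477) and with a trend with exonic length removed (0.85, adjusted p = 0.00418), a setting fitted and adjusted over 431 nuclear placed features only.

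The 2 V1 subunits were therefore compared within libraries. The ratio of Atp6v1c1 to Atp6v1f was 0.0894, 0.161 and 0.153 in shSLX4IP A, B and C, against 0.489, 0.624 and 0.585 in shScram A, B and C. The 2 sets of ratios did not overlap, and shScram A stood close to its group in this measure. It was high for both genes, at 2.00 times the mean of shScram B and C for Atp6v1c1 and 2.46 times for Atp6v1f. The mean log2 ratio differed by -2.12 (exact permutation p = 0.1). Relative to the F subunit, the C subunit was lower in each shSLX4IP library than in any shScram library. Atp6v1c1 was placed only through its shScram level, however, so this difference and its p are a description. The ratio also sets a long gene (5601 exonic bases) against a short one (1063), and shScram A differed from shScram B and C by gene length, as given below. With that length trend removed, the log2 fold changes were -2.04 for Atp6v1c1 and 0.85 for Atp6v1f.

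Atp6v0d2 (ENSMUSG00000028238.7, chromosome 4, 19876841 to 19922605) encodes the d2 subunit of V0, a form known from osteoclasts and macrophages, where it stands in for the widely expressed d1. It was listed at 0 in all 6 libraries. A count of 0 allows up to 3 reads, which corresponds to 2.39 to 2.93 normalised counts in the shSLX4IP libraries and 2.73 to 4.39 in the shScram libraries, counting error only. In its surroundings 5 of the 10 protein-coding genes before it and 7 of the 10 after it had a mean of at least 100, but the genes next to it on either side, Slc7a13 and Ttpa, were also listed at 0. No fold change is given.

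Laptm4b (ENSMUSG00000022257.5, chromosome 15, 34238028 to 34284302) encodes a membrane protein of late endosomes and lysosomes that is often overexpressed in human breast cancer. It was at 1200, 1154 and 954 normalised counts in shSLX4IP A, B and C, against 4985, 2102 and 2168 in shScram A, B and C. The groups did not overlap, and shScram A was 2.33 times the mean of the other shScram libraries. The means were 1103 ± 131 in shSLX4IP and 3085 ± 1646 in shScram (SD, n = 3 each), a log2 fold change of -1.37 (SE 0.37, limma adjusted p = 0.0483). This call is at the edge of the threshold and failed in 8 of the 18 alternatives (adjusted p 0.0508 to 0.163), which include leaving out any 1 shSLX4IP library, shScram B or shScram C. Without shScram A it held at -0.96 (adjusted p = 0.0038), and with the length trend removed at -0.64 (adjusted p = 0.0367).

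Tmem106b (ENSMUSG00000029571.15, chromosome 6, 13069759 to 13089269) encodes a lysosomal membrane protein that influences the size, position and acidity of lysosomes and is known from human frontotemporal dementia. It was at 3702, 3367 and 3285 normalised counts in shSLX4IP A, B and C, compared with 2188, 3366 and 2648 in shScram A, B and C. The groups overlapped through shScram B, which lay between shSLX4IP B and C. The means were 3451 ± 221 in shSLX4IP and 2734 ± 594 in shScram (SD, n = 3 each), and the log2 fold change of 0.36 (SE 0.19) did not pass (limma adjusted p = 0.216) in the main test or in any of 18 other settings.

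The ratio of Laptm4b to Tmem106b, both membrane proteins of the lysosome, was 0.324, 0.343 and 0.290 in shSLX4IP A, B and C and 2.28, 0.624 and 0.819 in shScram A, B and C. The highest ratio in shSLX4IP was below the lowest in shScram, and the mean log2 ratio differed by -1.72 (exact permutation p = 0.1). This ratio sets a short gene (1938 exonic bases) against a long one (6931), and shScram A differed from shScram B and C by gene length, as given below. With that length trend removed, the log2 fold changes were -0.64 for Laptm4b and 0.22 for Tmem106b. The ratio of Rragd to Atp6v1c1, the genes that moved farthest up and down, was 5.34, 2.60 and 2.85 in shSLX4IP and 0.0629, 0.142 and 0.139 in shScram, a difference of 4.99 on the log2 scale. These genes were paired in the last ratio because their fold changes are the extremes, so it is a description. It also holds Atp6v1c1, placed only through its shScram level.

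**Figure D2:**
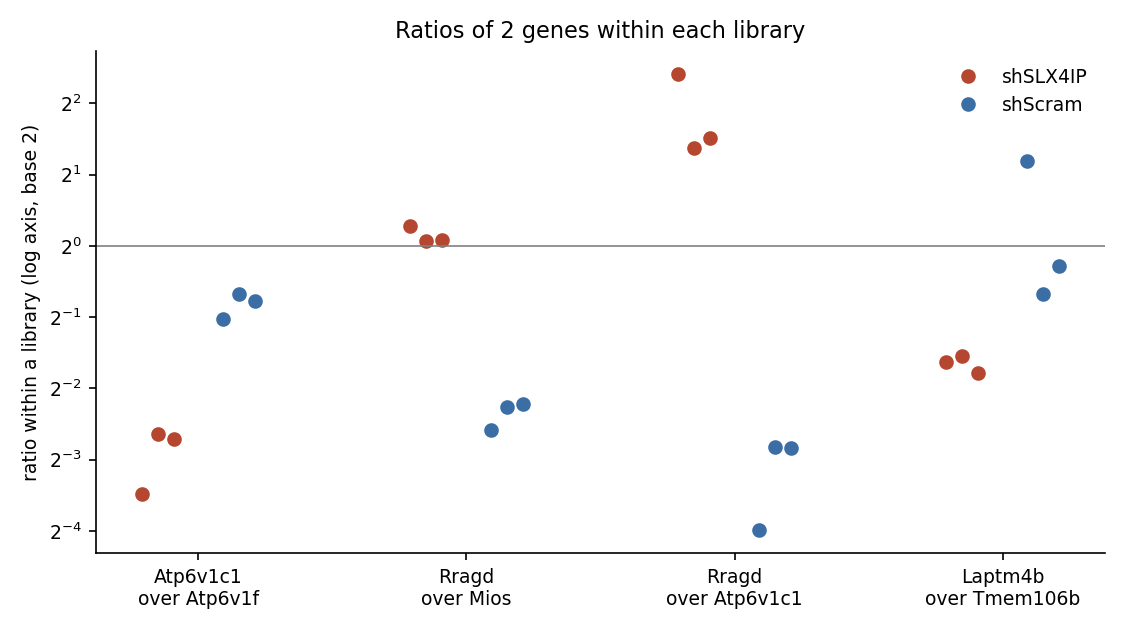
Ratio of 2 genes within each library (y axis, log scale to base 2) for 4 pairs of genes, with the 3 shSLX4IP libraries to the left of the 3 shScram libraries in each pair. The groups do not overlap in any of the 4 ratios, and shScram A stands apart from shScram B and C for Laptm4b over Tmem106b and for Rragd over Atp6v1c1.

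Part of the spread within shScram went with gene length. Among nuclear placed genes averaging 100 or more, shScram A was set against the mean of shScram B and C, and the log2 ratio had a median of 0.84 in the shortest of 3 sets by exonic length (118 genes), -0.02 in the middle set (117) and -0.27 in the longest (118). Atp6v1f, with 1063 exonic bases, and Laptm4b, with 1938, were in the shortest set and were 2.46 and 2.33 times the mean of shScram B and C in shScram A. Atp6v1c1, with 5601 exonic bases, was in the middle set and had a log2 ratio of 1.00, close to the upper end of that set, whose 90th percentile was 1.02. Rragd was at -0.16, Mios at 0.19 and Tmem106b at -0.46. With the trend removed the log2 fold change of Atp6v1c1 was -2.04 and that of Rragd 2.98, close to the main test, and that of Mios was 0.36. Those of Laptm4b, Atp6v1f and Tmem106b moved by over 1.5 times, the last of them to 0.22.

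**Figure D3:**
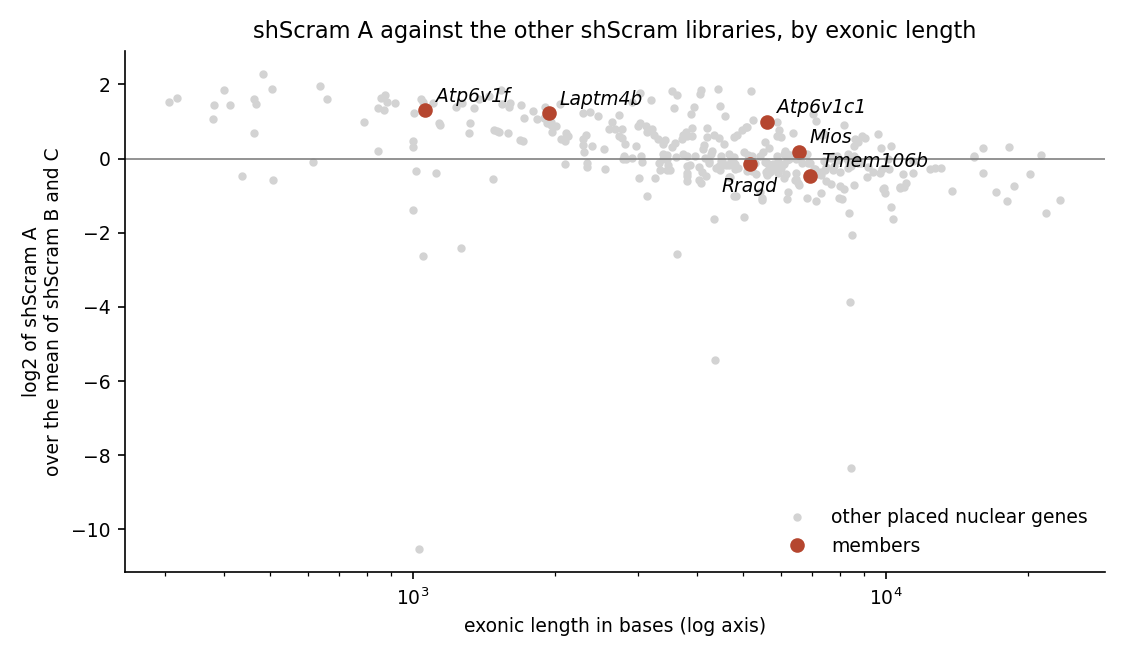
The log2 ratio of shScram A to the mean of shScram B and C (y axis) against exonic length in bases (x axis, log scale) for nuclear placed genes averaging 100 or more normalised counts, with 6 of the described genes named. Short genes sit above 0 in shScram A, Atp6v1f and Laptm4b with them, and Atp6v1c1 sits at 1.00 among longer genes near 0.

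Per kilobase of exonic sequence the order of the genes differed between the groups. In shSLX4IP, Atp6v1f had the highest level at 4347 ± 173 normalised counts per kb (mean ± SD, n = 3), followed by Laptm4b at 569 ± 67.6, Tmem106b at 498 ± 31.9, Rragd at 396 ± 33.9, Mios at 282 ± 5.01 and Atp6v1c1 at 111 ± 31.6. In shScram, Atp6v1f at 4459 ± 2550 and Laptm4b at 1592 ± 849 came first, then Atp6v1c1 at 457 ± 199, Tmem106b at 394 ± 85.7, Mios at 203 ± 18.2 and Rragd at 50.3 ± 4.47. Rragd was thus the lowest of the 6 in shScram and Atp6v1c1 the lowest in shSLX4IP. Atp6v1c1 was placed only through its shScram level, however, so its ranks are a description. Apart from it, Rragd stood above Mios in shSLX4IP and below Mios in shScram. The library shScram A differed from the others of its group by gene length, as given above. This bears on the shScram levels of the short genes Atp6v1f and Laptm4b, whose SDs were large. Neighbours whose library values overlapped were Laptm4b and Tmem106b in shSLX4IP and Atp6v1c1 and Tmem106b in shScram.

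Other genes of the lysosome, of nutrient sensing and of autophagy were taken from 5 lists of 208 genes. Of these, 193 lie outside the placed stretches and cannot be read, and 15 were placed, 7 of them the genes above. Of the 8 others 7 were tested, of which 3 were higher, 2 were lower and 2 did not pass. Beside them, 23.0% of all features tested were called (11.7% higher and 11.3% lower) and 40.3% of placed ones (17.3% higher and 22.9% lower). The same shares stand beside the counts that follow. With the members included, 13 genes were tested, 4 of them higher and 4 lower, with a median log2 fold change of 0.11 against 0.25 over all features and -0.23 over placed ones. By list, the v-ATPase list of 25 genes had 2 tested genes (1 lower), mTORC1 nutrient sensing 4 of 51 (2 higher, 1 lower), lysosomal membrane and positioning 3 of 48 (1 lower), lysosomal hydrolases 1 of 50 (lower) and autophagy 3 of 34 (2 higher). The lower v-ATPase gene was Atp6v1c1, placed only through its shScram level.

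In nutrient sensing, Bmt2 encodes SAMTOR, which in human cells binds S-adenosylmethionine and restrains mTORC1 through GATOR1. It was at 2099, 2034 and 2024 normalised counts in shSLX4IP A, B and C, against 1068, 1417 and 1238 in shScram A, B and C, with no overlap (log2 fold change 0.73, SE 0.15, limma adjusted p = 0.0238). The Bmt2 call failed without any 1 shSLX4IP library, without shScram C and without the intensity trend of the test (adjusted p 0.0706 to 0.0945). Dap encodes a protein that mTOR phosphorylates in human cells and that holds back autophagy. It fell to 2586, 2667 and 2693 in shSLX4IP A, B and C, against 17250, 8234 and 9650 in shScram A, B and C (log2 fold change -2.07, SE 0.29, limma adjusted p = 0.00624). Dap kept its call in each of 18 other settings, with shScram A at 1.93 times the mean of shScram B and C, and stood at -1.33 with the length trend removed. Tfec, a member of the MiT/TFE family of transcription factors, was listed at 0 in all 6 libraries.

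In the lysosome itself, Ggh encodes the hydrolase that trims glutamates from folates. It was at 401, 427 and 340 normalised counts in shSLX4IP A, B and C, against 1513, 711 and 901 in shScram A, B and C, with no overlap (log2 fold change -1.35, SE 0.31, limma adjusted p = 0.0316). Its call was lost without any 1 shSLX4IP library and without shScram C (adjusted p 0.0798 to 0.118), and its log2 fold change was -0.62 with the length trend removed. Pip4p2, a phosphoinositide phosphatase of late endosomes and lysosomes, averaged 2719 ± 141 in shSLX4IP and 2638 ± 120 in shScram (SD, n = 3 each). Its log2 fold change was 0.04 (SE 0.12, limma adjusted p = 0.801), and 0.74 with the length trend removed (adjusted p = 0.0153).

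In autophagy, Stx17 encodes the SNARE protein through which autophagosomes fuse with lysosomes. It was at 2265, 2091 and 2120 normalised counts in shSLX4IP A, B and C, against 964, 1335 and 962 in shScram A, B and C (log2 fold change 1.01, SE 0.18, limma adjusted p = 0.0141). The groups did not overlap, and the call was lost without any 1 shSLX4IP library and without shScram C (adjusted p 0.0532 to 0.0668). Trp53inp1, a p53 target whose product binds LC3 proteins, rose by 2.03 on the log2 scale (SE 0.22, limma adjusted p = 0.00291) and kept its call in each of 18 other settings. Retreg1, a receptor for autophagy of the endoplasmic reticulum, averaged 1809 ± 30.8 in shSLX4IP and 2244 ± 41.7 in shScram (SD, n = 3 each). Its log2 fold change of -0.31 did not pass (limma adjusted p = 0.107), although it did without shScram A (-0.30, adjusted p = 0.0133) and with DESeq2, and it was 0.06 after quantile normalization.

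**Figure D4:**
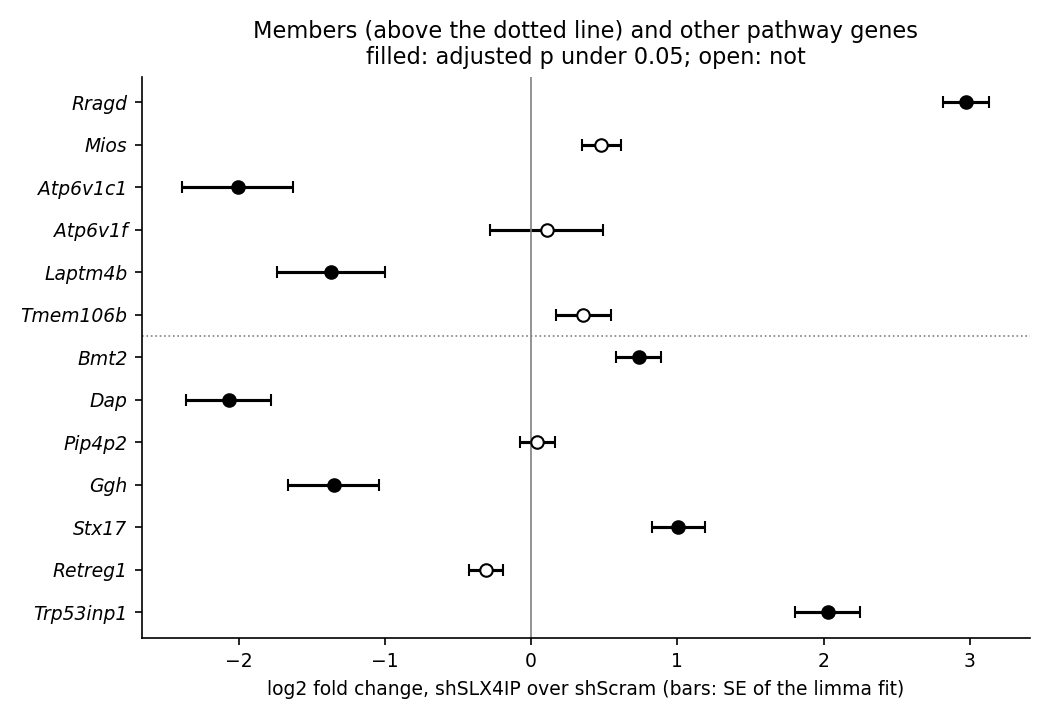
Log2 fold change of shSLX4IP over shScram (x axis) with the SE of the limma fit, for the 6 tested genes above the dotted line and 7 other placed genes of the lists below it. Filled points passed an adjusted p of 0.05 and open points did not. Rragd at 2.97 and Trp53inp1 at 2.03 are the highest, and Dap at -2.07 and Atp6v1c1 at -2.01 the lowest.

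Placed genes with the profile most like each of the 6 over the 6 libraries were looked up among 352 genes with a mean of at least 100, by the Pearson correlation of log2(value + 1). They were G930009F23Rik for Rragd (r = 0.998), Tspan33 for Mios (0.994), Gm2573 for Atp6v1c1 (0.999), Gm12918 for Atp6v1f (0.986), Sub1 for Laptm4b (0.997) and Met for Tmem106b (0.982). The points share their libraries and size factors, and each value is the highest of many. G930009F23Rik, Tspan33 and Gm2573 reached a mean of 100 only through the group in which they were high, so these matches are a description. Tspan33, the match of Mios, was at 634, 547 and 666 normalised counts in shSLX4IP A, B and C, compared with 51.3, 9.34 and 18.2 in shScram A, B and C, a far larger difference than that of Mios. G930009F23Rik had a log2 fold change of 7.69, against 2.97 for Rragd, and Gm2573 one of -3.24, against -2.01 for Atp6v1c1. Those of Gm12918, Sub1 and Met were 0.30, -1.70 and 0.49, against 0.11, -1.37 and 0.36 for Atp6v1f, Laptm4b and Tmem106b. A high correlation here does not mean a difference of like size.

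Markers of cell types that could be present were read as far as they were placed. The labelled origin, a breast cancer, could not be checked, since Epcam, Krt8, Krt18 and Cdh1 lie outside the placed stretches. The 1 placed epithelial gene of 5, Grhl2, ranged from 2.93 to 20.7 normalised counts in shSLX4IP and from 16.8 to 68.8 in shScram. Of 6 macrophage or osteoclast markers, cell types in which Atp6v0d2 is used, Lyn and Irf5 were placed, and both were higher. Lyn had a log2 fold change of 2.87 (SE 0.25, limma adjusted p = 0.00137) and Irf5 one of 1.54 (SE 0.19, limma adjusted p = 0.00431). Both passed in all 18 alternatives. The summed value of Lyn and Irf5 was 1940 to 2060 in shSLX4IP and 327 to 468 in shScram, while Adgre1, Csf1r, Acp5 and Ctsk lie outside and cannot be read. Exons of Lyn and Irf5 overlap genes on the other strand, as do those of Grhl2, Zeb1, Pax5 and Cd72. The 2 placed mesenchymal or fibroblast markers of 5, Col1a2 and Zeb1, went opposite ways. Their sum was 1660 to 1790 in shSLX4IP, most of it from Zeb1. In shScram the sum was 20600 to 25800, most of it from Col1a2. Col1a2 averaged 271 ± 31.4 in the first group and 23243 ± 2627 in the second (SD, n = 3 each). Its log2 fold change of -6.42 (SE 0.16) passed (limma adjusted p = 7.64e-05), as it did in all 18 alternatives. Zeb1 had 1442, 1484 and 1423 normalised counts in the shSLX4IP libraries A, B and C, against 349, 961 and 760 in the shScram libraries A, B and C. These groups did not overlap, but the log2 fold change of 1.19 (SE 0.39) did not pass (limma adjusted p = 0.0798), although it passed in 6 of the 18 alternatives. The 1 placed basal marker of 4, Cav1, was lower, though not past the test in 8 of the 18 alternatives, at 13400 to 14100 in shSLX4IP and 20900 to 21300 in shScram. The 2 placed B cell markers of 3, Pax5 and Cd72, did not pass and summed to 13.7 to 29.5 in shSLX4IP and 52.7 to 93.4 in shScram. The 1 placed adipocyte marker of 2, Lep, was at 0 in each shSLX4IP library and at most 8.79 in shScram. The part of any of these in the changes above was not tested.

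**Figure D5:**
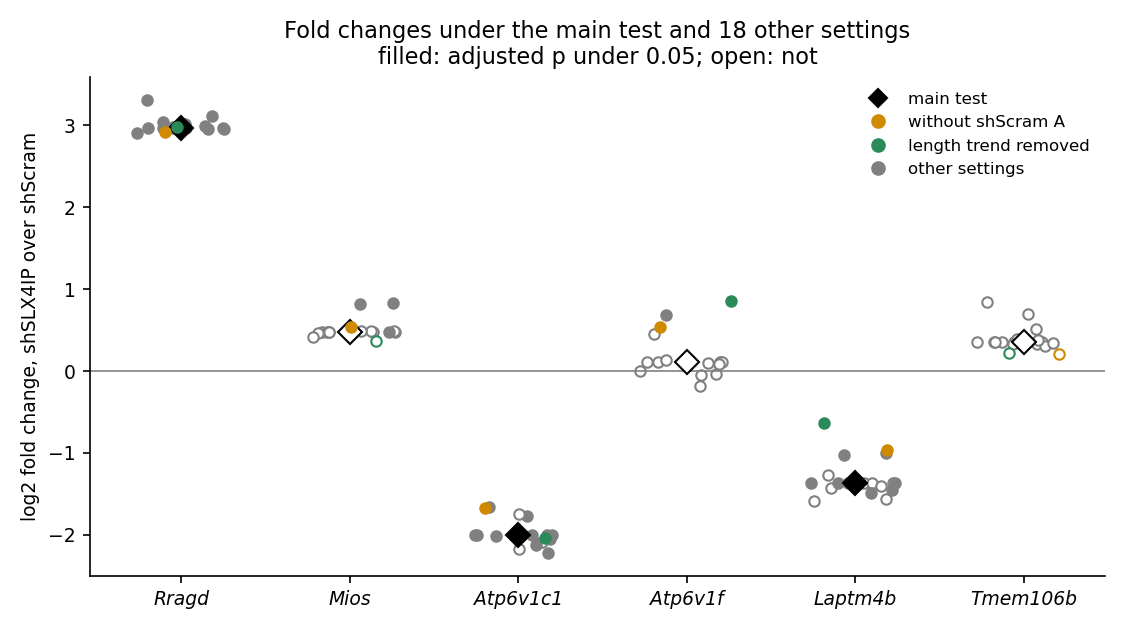
Log2 fold change of shSLX4IP over shScram (y axis) for 6 genes under the main test (diamonds) and 18 other settings (circles, spread sideways for view only), filled where the adjusted p is under 0.05. Rragd is filled throughout at 2.90 to 3.32, Atp6v1f falls on both sides of 0, and Laptm4b moves toward 0 without shScram A and with the length trend removed.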

How the data were processed

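Poly(A) RNA of 6 libraries was read from 1 deposited table of signal values, that is, normalised counts per gene. GRCm38 and the tools DESeq2 1.22.1, StringTie 2.1.7, STAR 2.7.7 and fastp 0.19.5 appear in the submitters' processing notes. Annotation, filters and strand setting of the counting were not given in the sources used here. Each deposited column is a whole multiple of 1 step, the value of 1 read, for at least 99.976% of values above 0 (within 0.1). This step gave the recovered reads. Columns carry letters that no label has, so a letter only names a library.

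Identifiers were matched to GENCODE M21, 52094 of 53647. Protein-coding genes along each chromosome scored 3 at a mean of at least 1000 and -1 otherwise, and the 4 stretches scoring at least 30 hold the placed genes. The main test was limma 3.58.1 (R 4.3.3) with an intensity trend on log2(value + 1), features with a mean of at least 10. Recovered reads were also tested with edgeR 4.0.16, which called 712 features higher and 854 lower, and DESeq2 1.42.0. Named were the 7 members, the placed genes of the lists, and each member's closest profile. Members and lists were chosen with earlier results of these data known.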

Additional observations from a re-analysis of the deposited data

How the results depend on the processing

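Of 18 other settings, Rragd kept its call in all 18 and Tmem106b stayed uncalled in all 18. Mios passed with a mean of at least 50 (0.48), TMM factors (0.48), quantile normalization (0.82), DESeq2 (0.47), values scaled to equal sums (0.82) and adjustment over placed features only (0.48), and ranged from 0.41 to 0.54 with 1 library left out. Laptm4b lost its call with a pseudocount of 0.5 (-1.37), without a filter (-1.37) and without the intensity trend (-1.37), and ranged from -1.58 to -0.96 with 1 library left out. Atp6v1c1 ranged from -2.22 to -1.67 and Atp6v1f from -0.18 to 0.54. Atp6v1f passed at 0.69 after quantile normalization and at 0.85 with the length trend removed, and turned to -0.0453 with DESeq2. Retreg1 turned to 0.0633 after quantile normalization and to 0.0339 with equal sums. The cause was not tested.

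With 1 library left out, 433 to 1895 features were higher and 410 to 1573 lower, 40 to 134 placed features were higher and 58 to 167 lower, and 2 to 6 pathway genes were higher and 1 to 5 lower. The counts were highest without shScram A, and a pathway count of 1 lower was reached without any 1 shSLX4IP library. DESeq2 called 1602 features higher and 1624 lower, 165 of the lower ones placed. The length trend setting, which also limits the fit and the adjustment to nuclear placed features, gave 143 higher, and adjustment over placed features alone gave 100. Equal sums, chosen with adjustment over placed features after the values were seen, moved the median log2 fold change of all features from 0.25 to 0.58 and of placed ones from -0.23 to 0.11, and quantile normalization moved them to -0.0028 and 0.06. With equal sums 1119 of all features were higher and 737 lower, against 952 and 920. No paired analysis was possible because the columns carry letters that are not tied to the replicate numbers of the labels. The 6 tested genes had 165 or more reads in each library.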
